A study of Homo sapiens with 6 samples.

Results

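The genes described here encode liver plasma carrier and acute-phase proteins. Members were chosen by gene symbol from a list of 35 genes, and 33 of them were found among the 20026 genes of the count table. The pentraxin genes APCS and CRP were not analysed here. The libraries came from HepG2, an established human liver cancer cell line, in which CRISPR/Cas9 with a pair of guides on either side of the mature miRNA was used to delete miR-23a or miR-27a, neighbours in 1 miRNA cluster. The 6 libraries fall into 3 genotypes with 2 libraries each: Scr control cells, labelled WT, which received the vector without a targeting sequence, miR-23a KO cells and miR-27a KO cells. The comparisons ask which transcripts differ between cells with each edit and Scr cells, and between the edits. The effect of each edit on other miRNAs was not analysed here. Total counts were 14891288 and 14405302 in Scr, followed by 16515321 and 15930834 for miR-23a KO and 15850642 and 15947365 for miR-27a KO.

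Several features limit these groups as models. Edited cells were sorted and grown as colonies from single cells, so a group can carry the traits of its colonies besides the edit. The labels do not say whether both libraries of a group came from separate colonies or from cultures of 1 colony, so the p-values measure only the spread between these libraries, which may be technical. The genes of the edited miRNAs themselves were not analysed here, and the grouping rests on the labels. In bulk libraries of this kind, fewer cells of a type and less RNA per cell cannot be told apart.

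Hepatocytes secrete most plasma proteins, among them albumin and the carriers that bring hormones, vitamins, haem and metals through the blood. During inflammation, interleukin-6 and interleukin-1 signalling raises the transcription of acute-phase proteins such as serum amyloids, haptoglobin and orosomucoids, while albumin and transthyretin are lowered. HepG2 cells retain much of this secretory programme together with the fetal protein alpha-fetoprotein.

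The mature miRNAs are shown first because they are the targets of the edits; the groups are named by the labels, and no level of any other miRNA in the cluster was analysed here. The sequences are from RefSeq (GRCh38.p14), with the seed, bases 2 to 8, in capitals.
hsa-miR-23a-3p, chr19:13836595-13836615, minus strand: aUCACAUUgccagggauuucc
hsa-miR-27a-3p, chr19:13836447-13836467, minus strand: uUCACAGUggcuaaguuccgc
A seed pairs with AATGTGA for miR-23a-3p and with ACTGTGA for miR-27a-3p. In GENCODE 29 transcripts, the 3′ UTRs of 2 of 33 members (6.06%) held the miR-23a-3p letters, and 1 of 33 (3.03%) held those of miR-27a-3p. Among 15611 genes with a 3′ UTR the shares were 18% and 15.6%. Member UTRs were short, at a median of 186 bases, where all genes had 1053. The stretches that held the letters are printed with the match in capitals.
A1BG, miR-23a-3p, position 143 of a 172-base UTR: aggaattaataAATGTGAagag
HRG, miR-23a-3p, position 1 of a 357-base UTR: AATGTGAttcc
HRG, miR-23a-3p, position 122 of the same UTR: agatgcagcaaAATGTGAatgg
AHSG, miR-27a-3p, position 293 of a 388-base UTR: aaaccattggaACTGTGActtt
These are matches of letters and were not tested as binding sites. None of the 9 members called below in miR-27a KO carried the ACTGTGA letters in the UTR examined.

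Libraries of a group differed unevenly, and the miR-23a KO pair stood apart. In counts per 1000000 of the library total (CPM), with 0.5 counts added, 49.99% of 13412 genes tested in all comparisons differed by over 2-fold between both miR-23a KO libraries, against 8.04% in Scr and 2.71% in miR-27a KO. Of 28 members in that set, 13 (46.4%) differed by over 2-fold within miR-23a KO, 4 (14.3%) within Scr and 0 within miR-27a KO. The median log2 ratio of these genes was 0.64 away from 0 between the miR-23a KO libraries, and with each pair centred on its median the members past 2-fold were 20 (71.4%) in miR-23a KO, 5 (17.9%) in Scr and 0 in miR-27a KO, beside 47.8%, 7.69% and 2.72% of genes. The widest CPM gaps within miR-23a KO were 8.03-fold for CP, 7.94-fold for TTR, 5.57-fold for SHBG and 4.67-fold for A1BG. Within Scr, SERPINA3 differed by 5.20-fold, TTR by 3.21-fold, SHBG by 2.51-fold and SAA4 by 2.43-fold. The miR-27a KO pair was close but not identical, with a chi-square per degree of freedom of 2.45 against 28.8 in Scr and 294 in miR-23a KO, so it was counted as 2 libraries. Results that involve miR-23a KO are therefore also given with each of its libraries left out. Leaving out a library leaves its group with 1 sample, which is then assumed to vary like the other group.

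Levels between genes are compared in transcripts per 1000000 (TPM), a measure that divides counts by gene length. ALB led in Scr at a mean of 12084 TPM, with SERPINA1 at 6556 TPM, AHSG at 6039 TPM and A2M at 3126 TPM. APOH, AMBP, ORM2 and RBP4 followed between 2679 and 1316 TPM. A long tail ended in ITIH1 at 0.97 TPM, and GC, HRG, SAA2, AFM and SAA1 were each at or below 0.54 TPM. ALB held 9402 and 14767 TPM in the Scr libraries, 5242 and 17971 TPM in miR-23a KO, and 2101 and 2157 TPM in miR-27a KO. In both miR-27a KO libraries ALB therefore stood below SERPINA1, AHSG, A2M, APOH and SERPINA3, whose group means were 8123, 7018, 3384, 4191 and 2269 TPM. The order among genes was not tested.

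**Figure D1:**
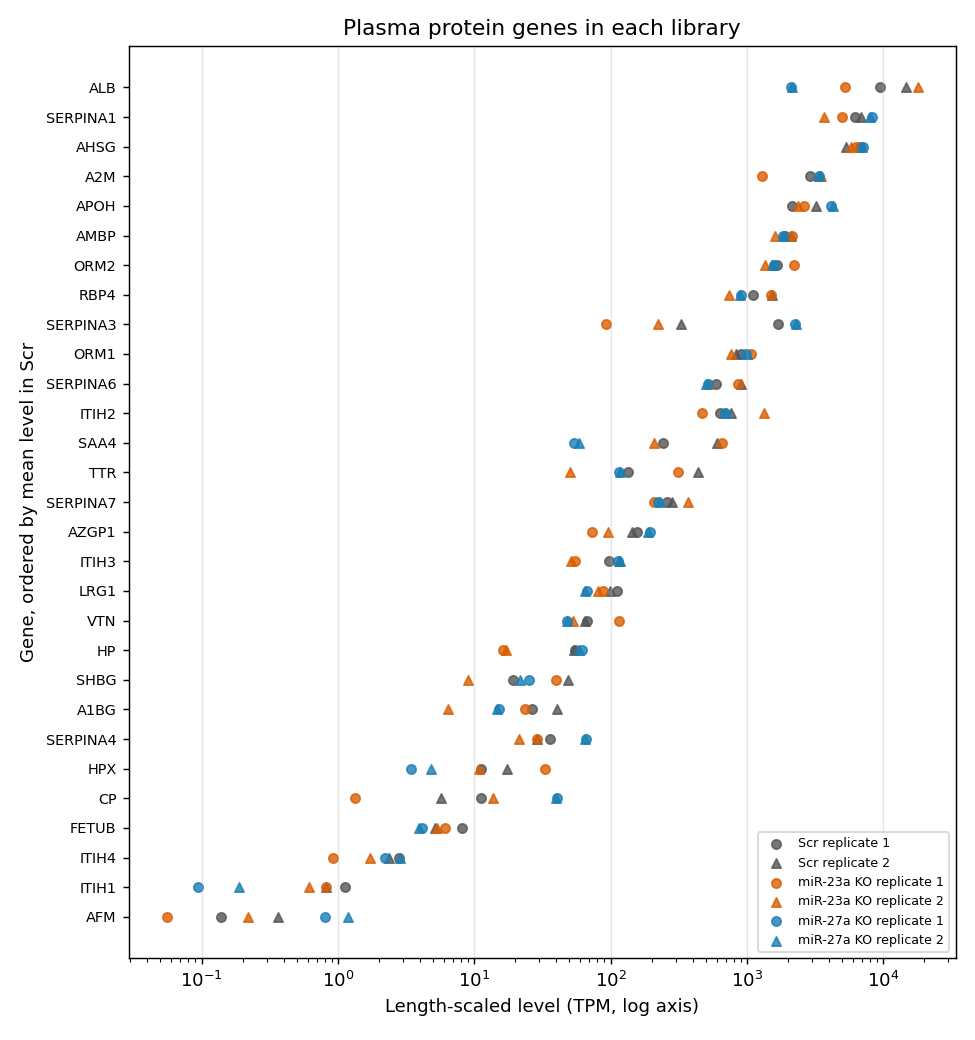
TPM on a log axis (x) of the 29 members tested in any comparison (y, ordered by mean level in Scr), with circles for replicate 1 and triangles for replicate 2 of Scr (grey), miR-23a KO (orange) and miR-27a KO (blue). Both blue points lie together for most genes, at 2101 and 2157 TPM for ALB, while the orange circle and triangle of CP, TTR and SAA4 lie far apart.

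Together the 33 members took 4.03% and 4.68% of all counts in Scr, then 3.30% and 3.99% for miR-23a KO and 3.72% and 3.71% for miR-27a KO. The 95% Wilson intervals reach about 0.01 percentage points to either side and cover counting error only. ALB alone took 1.01% and 1.55% of all counts in Scr, then 0.629% and 1.70% for miR-23a KO and 0.217% and 0.224% for miR-27a KO. As a part of member counts, ALB made up 25% and 33.2% in Scr, followed by 19.1% and 42.7% for miR-23a KO and 5.84% and 6.03% for miR-27a KO. The summed share of the module was thus within the range of the other libraries in miR-27a KO, although its ALB part was lowest there. Without ALB the share was highest there, at 3.51% and 3.49%, beside 3.02% and 3.13% in Scr and 2.67% and 2.28% for miR-23a KO. SERPINA1 took 1.33% and 1.30% of all counts in miR-27a KO, above the 1.04% and 1.13% of the Scr libraries.

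**Figure D2:**
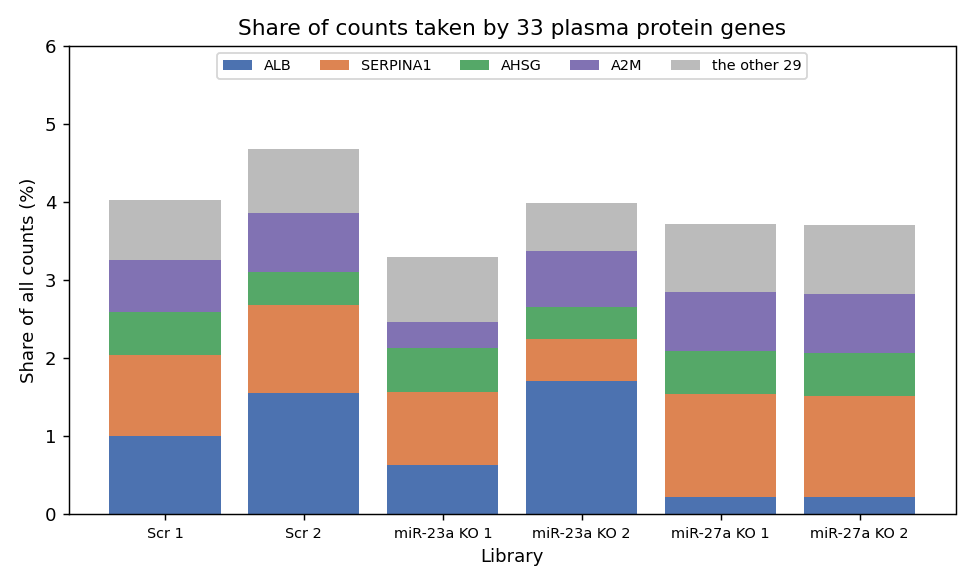
Share of all counts (y, percent) taken by the 33 members in each library (x), stacked as ALB, SERPINA1, AHSG, A2M and the other 29. The ALB block is 0.217% and 0.224% in miR-27a KO, below the 1.01% and 1.55% of Scr.

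In miR-27a KO, transcripts of albumin, the constitutive serum amyloid SAA4, haemopexin and retinol-binding protein fell, and those of ceruloplasmin and kallistatin rose. ALB was 6.04-fold lower and SAA4 7.92-fold lower in miR-27a KO than in Scr, whereas CP was 4.37-fold higher and SERPINA4 1.87-fold higher. Much of the module, including SERPINA1, AHSG, A2M and the orosomucoids, was not called. A gene is called here where its fold change passes 1.5 and its adjusted p from edgeR is under 0.05. Retinol-binding protein (RBP4) lost its call in 8 of 12 alternative settings, kallistatin (SERPINA4) in 4 and haemopexin (HPX) in 3. ALB, SAA4 and CP each lost it in 1. Of 29 members tested, 9 (31.0%) were called, against 1418 of 13821 genes (10.3%). Among these, 2 members rose and 7 fell, where 3.52% of all genes rose and 6.74% fell. At the stricter adjusted p of 0.001, edgeR called 0 members, against 4 genes in all (0.0289%). DESeq2, run without the low-count filter, called 8 members and 4.35% of 19330 genes at that threshold. An unadjusted edgeR p under 0.05 was reached by 16 members and by 32.2% of all genes. The median log2 fold change of the members was -0.14, beside 0.01 over all genes tested. With all libraries of both groups, GC, HRG, SAA1 and SAA2 did not pass the low-count filter in any comparison.

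The number called depended on the libraries and on how spread was estimated. Without Scr 1 it was 13, where 16.4% of all genes were called, and without Scr 2 it was 11, where 26.2% were called. With either miR-27a KO library left out it was 3, namely ALB, SAA4 and CP, and the share of all genes was 2.96% without miR-27a KO 1 and 2.29% without miR-27a KO 2. When all 6 libraries were fitted together, so that the wide miR-23a KO pair entered the estimate of spread, edgeR called 0 members and 0.452% of all genes, with 4 members and 7.51% of all genes at an unadjusted p under 0.05. DESeq2, fitted on the same 4 libraries as the reported result but without the low-count filter, called 9 members and 1574 of 19330 genes (8.14%).

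**Figure D3:**
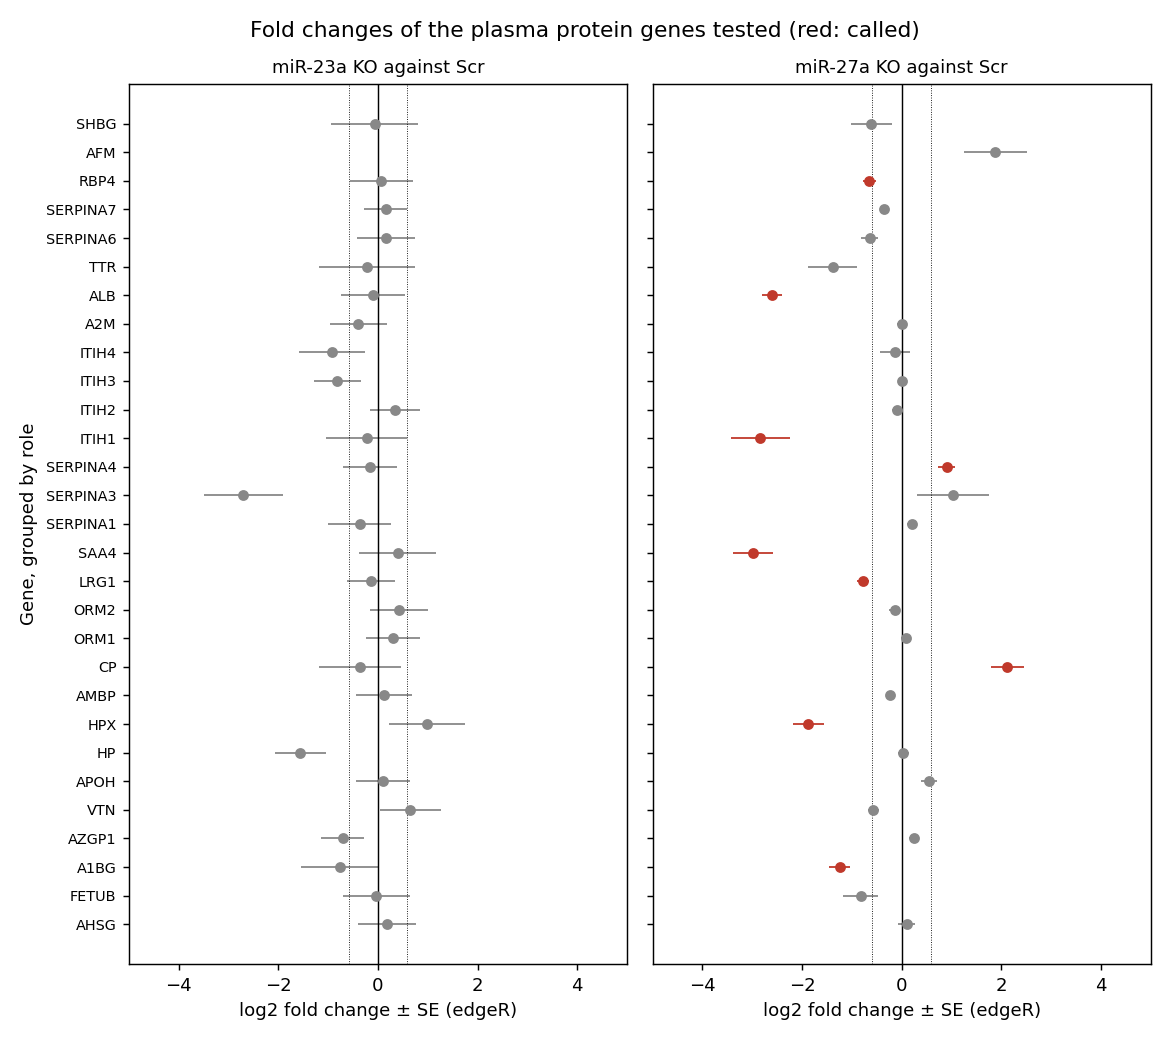
Fitted log2 fold change with its SE (x) of each member tested (y, grouped by role) in miR-23a KO against Scr (left) and miR-27a KO against Scr (right); red points are called, and dotted lines mark a fold of 1.5. All 9 red points are on the right, from -2.99 for SAA4 to 2.13 for CP, and both panels use the same Scr libraries.

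Promoters are shown for ALB and SAA4, which fell most among the called members other than the low-count gene ITIH1, and for SERPINA4, the called higher member with an entry. Each runs from 250 bases before to 50 after a RefSeq start (GRCh38.p14).
ALB, chr4:73404037-73404336, plus strand: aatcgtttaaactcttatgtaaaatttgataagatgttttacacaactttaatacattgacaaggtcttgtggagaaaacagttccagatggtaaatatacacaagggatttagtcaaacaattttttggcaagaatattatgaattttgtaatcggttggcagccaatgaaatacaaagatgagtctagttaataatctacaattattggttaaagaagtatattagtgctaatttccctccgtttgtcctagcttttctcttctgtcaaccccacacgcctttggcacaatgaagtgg
SAA4, chr11:18236753-18237052, minus strand: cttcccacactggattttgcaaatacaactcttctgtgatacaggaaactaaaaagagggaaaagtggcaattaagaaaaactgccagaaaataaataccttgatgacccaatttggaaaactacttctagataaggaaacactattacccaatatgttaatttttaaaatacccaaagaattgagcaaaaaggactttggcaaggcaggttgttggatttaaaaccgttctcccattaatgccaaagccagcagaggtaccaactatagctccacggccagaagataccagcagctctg
SERPINA4, chr14:94561192-94561491, plus strand: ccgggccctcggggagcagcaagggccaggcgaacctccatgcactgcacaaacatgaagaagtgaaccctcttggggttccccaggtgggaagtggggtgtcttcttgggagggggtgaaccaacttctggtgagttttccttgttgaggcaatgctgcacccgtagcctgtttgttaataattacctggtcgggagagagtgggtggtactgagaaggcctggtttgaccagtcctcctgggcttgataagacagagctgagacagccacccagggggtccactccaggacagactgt
Motifs were searched on both strands of 32 promoters of 24 members with an entry and of all 35116 promoters. The TATA box letters TATAAA were in 8 of the 32 (25%) against 11.5% of all, and TTCNNNGAA, the form of sites bound by STAT proteins, in 6 (18.8%) against 7.66%. Neither was in the 3 promoters printed, which therefore carry no capitals. These shares describe letters in a window and were not tested.

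Among the small-molecule carriers, ALB and RBP4 were called, and both fell. ALB encodes albumin, the main carrier of fatty acids and bilirubin in plasma (gene ID 213, chr4:73397114-73421412, plus strand; GENCODE 29 on GRCh38, as for all gene positions here). In CPM, ALB was at 10065 and 15528 in Scr, followed by 6287 and 17032 for miR-23a KO and 2174 and 2240 for miR-27a KO. Both miR-27a KO libraries lay below all the others, while the miR-23a KO libraries lay on either side of the Scr pair. The log2 fold change in miR-27a KO was -2.59 (SE 0.20, edgeR with Benjamini-Hochberg adjusted p = 0.00537), and it was called with each library left out in turn, with values from -2.83 to -2.30 over all settings. In miR-23a KO the log2 fold change of ALB was -0.10 (SE 0.64) and not called. RBP4, which carries retinol (gene ID 5950, chr10:93591687-93601744, minus strand), was at 693 and 927 CPM in Scr, 1044 and 410 CPM in miR-23a KO, and 543 and 535 CPM in miR-27a KO. The miR-27a KO pair was below the Scr pair but between the miR-23a KO libraries. RBP4 fell by 0.65 on the log2 scale (SE 0.13, edgeR with Benjamini-Hochberg adjusted p = 0.0342), just past the fold threshold. It was not called without Scr 2 (-0.47), without miR-27a KO 1 (-0.65), without miR-27a KO 2 (-0.63), with scaling by total counts (-0.59), without the low-count filter (-0.63) or with a correction for GC content and length (-0.46).

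The other carriers tested gave 0 calls by edgeR in miR-27a KO, with log2 fold changes from -1.38 to 1.88. TTR, which carries thyroxine and retinol-binding protein, was at -1.38 (SE 0.49), and its Scr libraries held 61.2 and 196 CPM against 50.2 and 51.7 CPM in miR-27a KO. The cortisol carrier SERPINA6 was at -0.64, the thyroxine carrier SERPINA7 at -0.35 and the sex steroid carrier SHBG at -0.61. Of these 5 genes, counting the vitamin E binder AFM at 1.88, 4 had an unadjusted p under 0.05, and DESeq2 called SERPINA6 alone. Without Scr 1, TTR (-1.96), SERPINA6 (-0.86) and SHBG (-1.09) were called. Without Scr 2, SHBG was at 0.14, so its direction rested on that library. AFM rested on few counts, 2 and 5 in Scr, followed by 1 and 3 for miR-23a KO and 12 and 18 for miR-27a KO. GC, the vitamin D carrier, had 3 and 10 counts in Scr. It had 0 and 0 counts for miR-23a KO and 2 and 2 for miR-27a KO. With these counts GC failed the low-count filter in the reported fits. It passed in miR-27a KO against Scr with either miR-27a KO library left out.

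Haem and metal binders moved in both directions. CP encodes ceruloplasmin, the copper-carrying ferroxidase of plasma (gene ID 1356, chr3:149162410-149222055, minus strand). Its levels were 24.7 and 12.5 CPM in Scr, 3.33 and 26.7 CPM in miR-23a KO, and 86.6 and 85.5 CPM in miR-27a KO. Both miR-27a KO libraries were above every other library, and the miR-23a KO pair spanned the Scr pair. CP rose by a log2 fold change of 2.13 (SE 0.33, edgeR with Benjamini-Hochberg adjusted p = 0.0213). The value was 2.77 without Scr 1 and 1.69 without Scr 2. HPX, haemopexin, binds free haem (gene ID 3263, chr11:6431049-6442617, minus strand), and was at 8.73 and 13.3 CPM in Scr, 29.2 and 7.47 CPM in miR-23a KO, and 2.59 and 3.64 CPM in miR-27a KO. Its miR-27a KO libraries were the lowest of the 6, with no overlap. HPX fell by 1.88 on the log2 scale (SE 0.31, edgeR with Benjamini-Hochberg adjusted p = 0.0239), but was not called without miR-27a KO 1 (-1.65) or without miR-27a KO 2 (-2.13). CP overlaps HPS3 in the annotation, and counting is not stated to use strand; HPS3 was at 180 and 202 counts in Scr and 171 and 166 counts in miR-27a KO.

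AMBP, the precursor of the haem-binding protein alpha-microglobulin and of bikunin (gene ID 259, chr9:114060127-114078472, minus strand), was not called. It was at 1286 and 1410 CPM in Scr, 1626 and 964 CPM in miR-23a KO, and 1203 and 1215 CPM in miR-27a KO. The miR-27a KO pair lay somewhat below Scr and between the miR-23a KO libraries, with a log2 fold change of -0.22 (SE 0.08). HP, haptoglobin, which binds free haemoglobin, gave a log2 fold change of 0.04 in miR-27a KO. Reads of HP can be shared with its near-identical copy HPR and with the overlapping TXNL4B, so its level is uncertain.

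**Figure D4:**
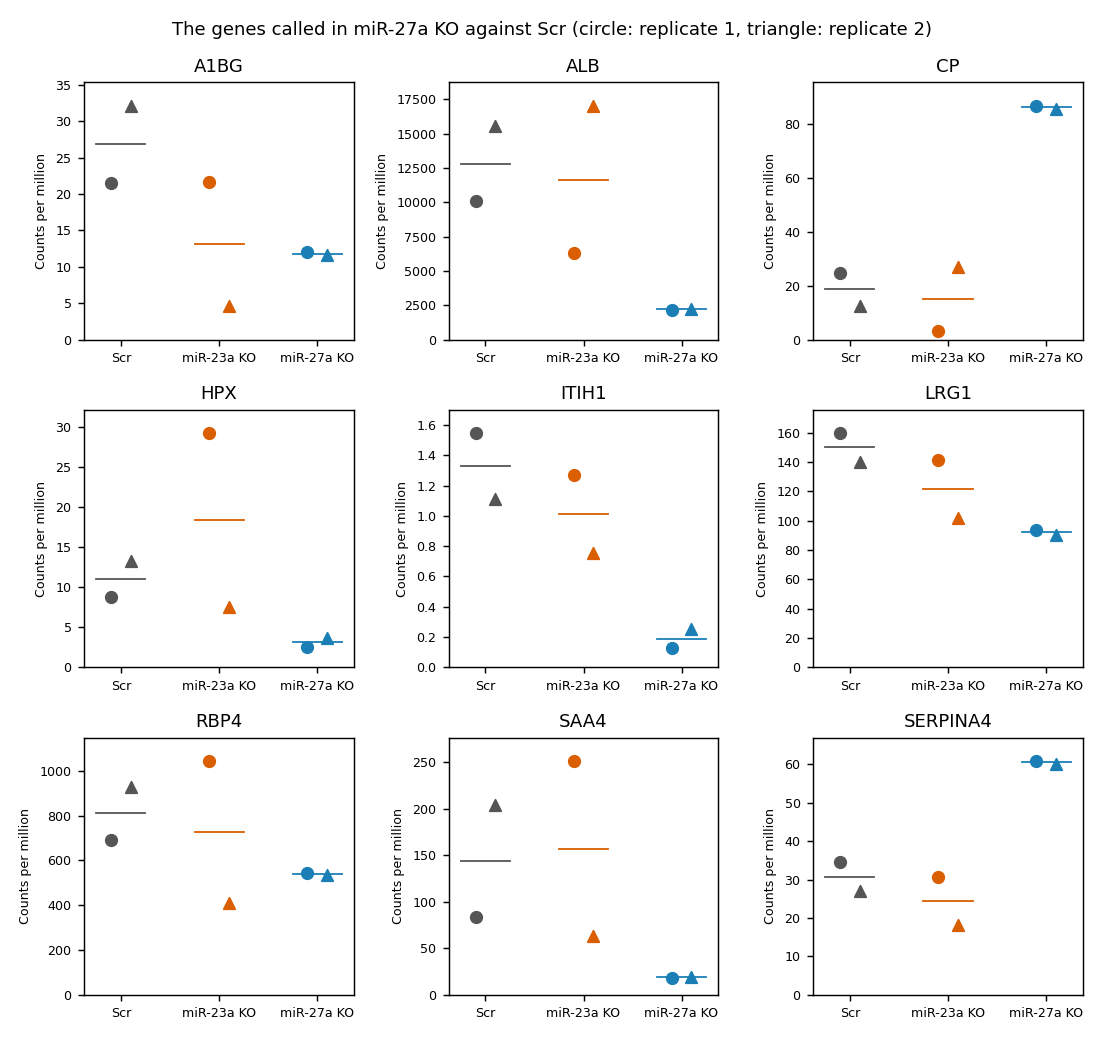
CPM (y, from 0) in each library of the 9 genes called in miR-27a KO against Scr, by group (x), with circles for replicate 1, triangles for replicate 2 and lines at group means. The miR-27a KO points of CP, near 86 CPM, lie above all others, those of ALB and SAA4 lie below all others, and the miR-23a KO points are spread widely in most panels.

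Among protease inhibitors and inter-alpha-trypsin heavy chains, SERPINA4 rose and ITIH1 fell, and the abundant inhibitors were not called. SERPINA1, antitrypsin, inhibits neutrophil elastase (gene ID 5265, chr14:94376747-94390693, minus strand). It was at 10376 and 11328 CPM in Scr, 9376 and 5406 CPM in miR-23a KO, and 13292 and 12987 CPM in miR-27a KO. Its 3 groups did not overlap, with miR-27a KO highest, yet the log2 fold change was only 0.21 (SE 0.10) in miR-27a KO and was not called. A2M, the broad macroglobulin inhibitor of proteases (gene ID 2, chr12:9067664-9116229, minus strand), was at 6618 and 7572 CPM in Scr, 3301 and 7098 CPM in miR-23a KO, and 7502 and 7512 CPM in miR-27a KO. Only miR-23a KO 1 stood apart, and the log2 fold change in miR-27a KO was 0.02 (SE 0.10). SERPINA4, kallistatin, inhibits tissue kallikrein (gene ID 5267, chr14:94561091-94569913, plus strand), and was at 34.5 and 27 CPM in Scr, 30.6 and 18.1 CPM in miR-23a KO, and 60.9 and 60.1 CPM in miR-27a KO. Both miR-27a KO libraries exceeded the other 4 libraries, and SERPINA4 rose by 0.90 (SE 0.16, edgeR with Benjamini-Hochberg adjusted p = 0.0292). The call was lost without miR-27a KO 1 (0.90), without miR-27a KO 2 (0.93) and without the low-count filter. SERPINA4 overlaps SERPINA5 on the same strand, which had 8415 and 6661 counts in Scr and 10607 and 10917 counts in miR-27a KO, so reads of SERPINA4 are uncertain.

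ITIH1 encodes a heavy chain that is linked to bikunin and hyaluronan (gene ID 3697, chr3:52777592-52792068, plus strand). It had 23 and 16 counts in Scr, 21 and 12 counts in miR-23a KO, and 2 and 4 counts in miR-27a KO. The miR-27a KO pair was lowest, at a depth where few counts decide the value. ITIH1 fell by 2.84 on the log2 scale (SE 0.60, edgeR with Benjamini-Hochberg adjusted p = 0.0383). It was not called without miR-27a KO 1 (-2.43), without miR-27a KO 2 (-3.37), by DESeq2 or without the low-count filter. Of the other heavy chains, ITIH2 was at -0.09, ITIH3 at 0.02 and ITIH4 at -0.13, and none of the 3 was called.

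SERPINA3, antichymotrypsin, is an acute-phase inhibitor that is described here because its values were seen to be uneven. It was at 1266 and 243 CPM in Scr, 78.3 and 148 CPM in miR-23a KO, and 1633 and 1670 CPM in miR-27a KO. Scr 1 was close to the miR-27a KO libraries and Scr 2 was closer to miR-23a KO. The log2 fold change in miR-27a KO was 1.03 (SE 0.73) and not called, but it was 2.75 and called without Scr 1 and 0.27 without Scr 2.

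In the role group of serum amyloids, orosomucoids and LRG1, SAA4 and LRG1 fell in miR-27a KO; the acute-phase genes HP and SERPINA3, grouped above by what they bind or inhibit, were not called. SAA4 encodes the serum amyloid that is made constitutively and travels on high-density lipoprotein (gene ID 6291, chr11:18231349-18236893, minus strand). It was at 83.8 and 204 CPM in Scr, 251 and 63.1 CPM in miR-23a KO, and 17.9 and 19.6 CPM in miR-27a KO. Both miR-27a KO libraries were the lowest, and the miR-23a KO libraries fell outside the Scr pair on either side. SAA4 fell by 2.99 on the log2 scale (SE 0.41, edgeR with Benjamini-Hochberg adjusted p = 0.0162), and by 2.27 without Scr 2. The readthrough gene SAA2-SAA4 shares its strand and exons, so its reads are uncertain; that gene had 35 and 66 counts in Scr and 5 and 7 counts in miR-27a KO. LRG1, a leucine-rich plasma glycoprotein that takes part in TGF-beta signalling (gene ID 116844, chr19:4536409-4540474, minus strand), was at 160 and 140 CPM in Scr, 142 and 102 CPM in miR-23a KO, and 93.6 and 90.6 CPM in miR-27a KO. Its miR-27a KO libraries were the lowest of the 6. LRG1 fell by 0.78 on the log2 scale (SE 0.12, edgeR with Benjamini-Hochberg adjusted p = 0.0190), and was not called without miR-27a KO 1 (-0.79) or without miR-27a KO 2 (-0.74).

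The orosomucoids ORM1 and ORM2 bind basic drugs and are near-identical copies, so their split of reads is uncertain. ORM2 (gene ID 5005, chr9:114329869-114333252, plus strand) was at 599 and 537 CPM in Scr, 897 and 429 CPM in miR-23a KO, and 545 and 540 CPM in miR-27a KO. The miR-27a KO libraries fell between the Scr libraries. Neither was called, with log2 fold changes of -0.14 for ORM2 and 0.09 for ORM1. The inducible serum amyloids were nearly silent: SAA1 had 0 and 1 counts in Scr, then 0 and 0 for miR-23a KO and 5 and 1 for miR-27a KO, and SAA2 had 2 counts in Scr 1 and 0 in every other library. A count of 0 allows up to 3 counts, or at most 0.208 CPM in these libraries.

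Among fetuins and other glycoproteins, A1BG fell and the abundant AHSG and APOH were not called. AHSG, fetuin-A, binds calcium phosphate and inhibits ectopic mineralisation (gene ID 197, chr3:186612923-186621318, plus strand). It was at 5479 and 4220 CPM in Scr, 5680 and 4161 CPM in miR-23a KO, and 5516 and 5484 CPM in miR-27a KO. In miR-27a KO it lay just above the Scr range and inside the miR-23a KO range, and the log2 fold change in miR-27a KO was 0.11 (SE 0.17). AHSG was the single member with the ACTGTGA letters printed above. APOH, which binds anionic phospholipid (gene ID 350, chr17:66212033-66256525, minus strand), was at 1198 and 1751 CPM in Scr, 1634 and 1165 CPM in miR-23a KO, and 2220 and 2295 CPM in miR-27a KO. Both miR-27a KO libraries were above the other 4 libraries, with a log2 fold change of 0.55 (SE 0.16), and APOH was not called except without Scr 2 (0.81).

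A1BG is a plasma glycoprotein of the immunoglobulin superfamily (gene ID 1, chr19:58345178-58353499, minus strand). It was at 21.5 and 32.1 CPM in Scr, 21.7 and 4.65 CPM in miR-23a KO, and 12 and 11.6 CPM in miR-27a KO. The miR-27a KO pair was below Scr, and miR-23a KO 2 was lower still. A1BG fell by 1.24 on the log2 scale (SE 0.21, edgeR with Benjamini-Hochberg adjusted p = 0.0243). It was not called without miR-27a KO 1 (-1.26), without miR-27a KO 2 (-1.21) or with the GC and length correction (-0.99). Its antisense gene A1BG-AS1, whose reads cannot be told apart without strand, had 34 and 21 counts in Scr and 18 and 22 counts in miR-27a KO. FETUB, the second fetuin, AZGP1, a zinc-binding glycoprotein, and VTN were not called, with log2 fold changes of -0.82, 0.25 and -0.56. VTN, vitronectin, an adhesion protein of plasma, missed the fold threshold at 1.48-fold, and FETUB (-1.15) and VTN (-0.64) were called without Scr 2. HRG, a histidine-rich glycoprotein, had 3 to 9 counts in each library and was not tested.

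No group of neighbouring members held more than 1 called member in miR-27a KO. SAA4, SAA2 and SAA1 lie within 38.6 kb, AHSG, FETUB and HRG within 65.3 kb, and AMBP, ORM1 and ORM2 within 273 kb. Of those tested among them, SAA4 alone was called. On chromosome 14, SERPINA6, SERPINA1, SERPINA4 and SERPINA3 lie within 320 kb, and SERPINA4 alone was called in miR-27a KO. On chromosome 3, ITIH1, ITIH3 and ITIH4 lie within 53.9 kb, and ITIH1 alone was called. On chromosome 4, ALB and AFM lie within 107 kb with AFP, alpha-fetoprotein, between them at chr4:73431138-73456174. AFP was at 2501 and 4021 CPM in Scr, 3031 and 7599 CPM in miR-23a KO, and 192 and 200 CPM in miR-27a KO. Both miR-27a KO libraries were far below the others, as for ALB. AFP fell by 4.11 on the log2 scale in miR-27a KO (SE 0.23, edgeR with Benjamini-Hochberg adjusted p = 0.00262), where AFM was at 1.88 and not called.

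In miR-23a KO against Scr, no member was called, and the wide spread of the miR-23a KO pair entered every test. The lowest values were those of SERPINA3, at a log2 fold change of -2.70 (SE 0.79), and HP, at -1.56 (SE 0.51). HP was at 37.6 and 36.2 CPM in Scr, 12.4 and 10.3 CPM in miR-23a KO, and 40.8 and 38.6 CPM in miR-27a KO. Both miR-23a KO libraries were lowest for HP and for SERPINA3, which were chosen here after their values were seen. By edgeR, 0 of 28 members and 0 of 13787 genes (0%) were called, at either adjusted p threshold. At an unadjusted p under 0.05 there were 2 members, SERPINA3 and HP, and 332 genes (2.41% of all genes). DESeq2 called 1 member, SERPINA3, and 0.330% of all genes. The median log2 fold change of the members was -0.08, beside 0.16 over all genes, and scaling by total counts moved that all-gene median by -0.10.

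Values by role in miR-23a KO are set beside those of miR-27a KO above, and both comparisons share the Scr libraries. Most are averages of libraries that lay apart, so the range of each role group is also given without miR-23a KO 1 and without miR-23a KO 2. The 6 carriers tested ranged from -0.22 for TTR to 0.16 for SERPINA6, but from -2.84 to 0.24 without miR-23a KO 1 and from -0.69 to 0.76 without miR-23a KO 2. Haem and metal binders were at -1.56 for HP, -0.36 for CP, 0.12 for AMBP and 0.99 for HPX, with ranges of -2.03 to 0.33 and -2.17 to 1.74 in these fits. The 8 protease inhibitors and heavy chains included ITIH4 at -0.92, ITIH3 at -0.82, A2M at -0.40 and SERPINA1 at -0.37. Their values ranged from -2.56 to 0.58 without miR-23a KO 1 and from -2.97 to 0.31 without miR-23a KO 2. Of these 8, 7 had values below 0, against 37.0% of all genes; the number was 7 without miR-23a KO 1 and 5 without miR-23a KO 2, where 52.2% and 53.8% of all genes were below 0. In the role group of SAA4, LRG1, ORM1 and ORM2, values ranged from -0.14 for LRG1 to 0.42 for ORM2, from -1.35 to -0.53 without miR-23a KO 1 and from 0.24 to 1.15 without miR-23a KO 2. In the last role group, A1BG was at -0.77, AZGP1 at -0.71, VTN at 0.65, AHSG at 0.18 and APOH at 0.09, with ranges of -2.70 to -0.41 and -0.54 to 1.31 in these fits. Over all roles, 12 of 28 members changed sign without miR-23a KO 1 and 9 without miR-23a KO 2. The average of TTR hides opposite libraries, at 160 CPM in miR-23a KO 1 and 20.1 CPM in miR-23a KO 2.

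Which miR-23a KO library was kept decided what was called. Without miR-23a KO 1, where 3.95% of all genes were called, 4 members were called lower: A1BG (-2.70), HP (-2.03), ITIH3 (-1.39) and RBP4 (-1.16). Without miR-23a KO 2, where 18.5% of all genes were called, 7 members were called: SERPINA3 (-2.97), CP (-2.17) and HP (-1.25) lower, and HPX (1.74), VTN (1.31), ORM2 (0.98) and ORM1 (0.79) higher. HP was called lower in both. RBP4 was at 0.70 and A1BG at 0.02 in the second of these fits, and HPX was at -0.73 in the first. With Scr 1 left out the median log2 fold change of the members was -0.07, beside 0.15 over all genes. With Scr 2 left out it was 0.06, beside 0.16.

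Between the knockouts, no member was called by edgeR. At an unadjusted edgeR p under 0.05, ALB, SAA4, HPX and ITIH1 were higher in miR-23a KO than in miR-27a KO. SERPINA3, CP, AFM, HP and AZGP1 were lower at that p. These 9 members were compared by their group values. SERPINA3 was at a log2 fold change of -3.81 (SE 0.41), the lowest unadjusted p among the members. SAA4 was at 3.36 (SE 0.92), HPX at 2.85 (SE 0.92), CP at -2.60 (SE 0.84) and ALB at 2.41 (SE 0.51). The low-count genes ITIH1 and AFM were at 2.57 (SE 0.84) and -2.80 (SE 0.77). HP was at -1.64 (SE 0.42) and AZGP1 at -1.01 (SE 0.34). For ALB, SAA4 and HPX every miR-23a KO library lay above both miR-27a KO libraries, and for SERPINA3 and CP every one lay below. By edgeR, 0 of 29 members and 0 of 13841 genes (0%) were called. At an unadjusted p under 0.05 there were 9 members and 1208 genes (8.73% of all genes). DESeq2 called 2.43% of all genes and 5 members: ALB, CP, HPX, SAA4 and SERPINA3. The median of the members was 0.35, beside 0.11 over all genes, but it was -0.57 without miR-23a KO 1, 0.71 without miR-23a KO 2 and 0.038 with the GC and length correction. Without miR-23a KO 1 edgeR called 17 members and 34.0% of all genes, and without miR-23a KO 2 it called 22 members and 51.4% of all genes, with ALB at 2.78 and 1.90, SERPINA3 at -3.65 and -4.01, and CP at -1.86 and -4.30. Some members changed side with the library kept: TTR was at -1.51 without miR-23a KO 1 and at 2.04 without miR-23a KO 2. With miR-27a KO 1 left out the median of the members was 0.33, beside 0.11 over all genes. With miR-27a KO 2 left out it was 0.35, beside 0.12.

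**Figure D5:**
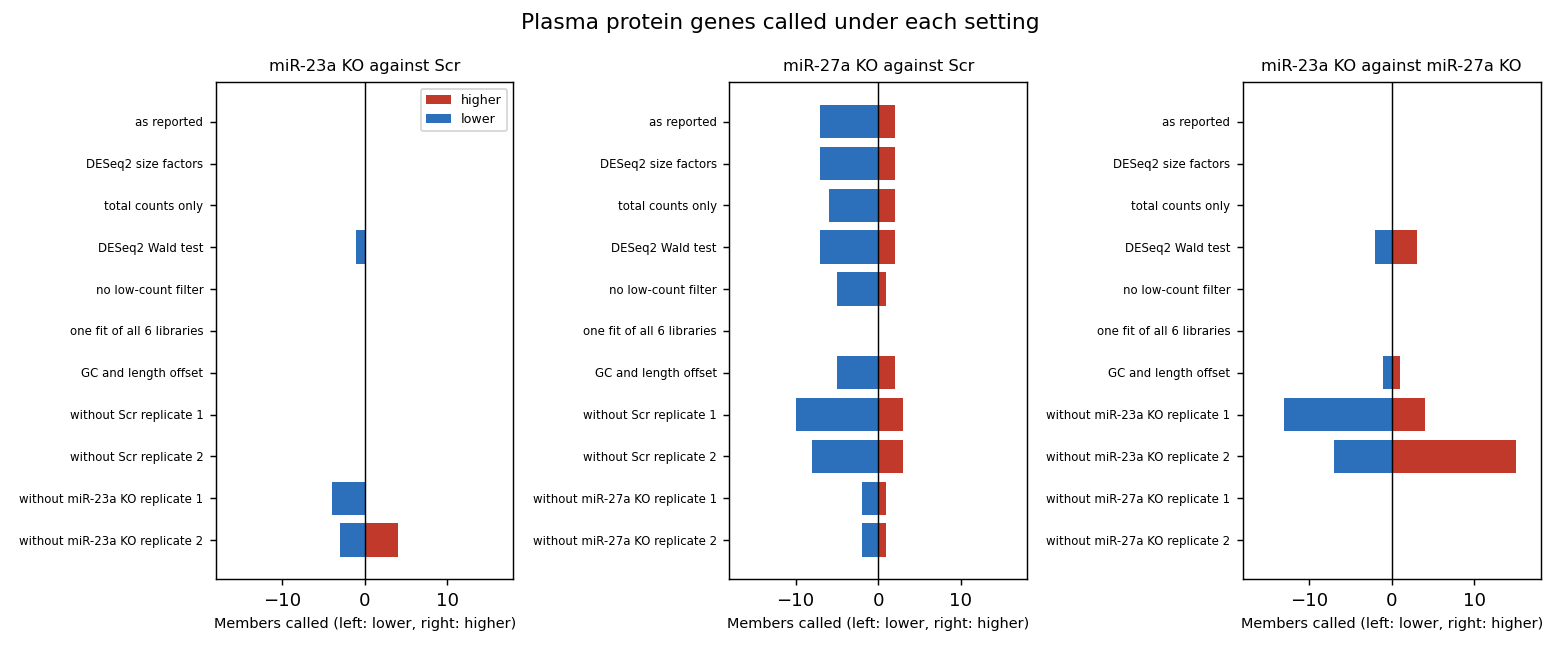
Number of members called (x, lower to the left and higher to the right) under each setting without a replicate block (y) in the 3 comparisons. Settings with the block are not drawn. Between the knockouts, the block alone called 3 members and 2.90% of all genes. With the GC and length correction added, it called 7 members and 5.55%. In miR-27a KO against Scr, 9 members are called as reported, 3 with either miR-27a KO library left out and 0 in 1 fit of all 6 libraries; in both comparisons of miR-23a KO, calls appear mainly when 1 of its libraries is left out.

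Genes of acute-phase signalling were also examined, from a list of 18. In miR-27a KO, 3 of 18 (16.7%) were called, beside 10.3% of all genes: SOCS3 fell, and NFKB1 and IL1R1 rose. SOCS3, the feedback inhibitor of interleukin-6 signalling, was at 10.01 and 2.78 CPM in Scr, 0.182 and 1.07 CPM in miR-23a KO, and 0.189 and 0.376 CPM in miR-27a KO. All KO libraries were below both Scr libraries. SOCS3 fell by 4.55 on the log2 scale in miR-27a KO (SE 0.88, edgeR with Benjamini-Hochberg adjusted p = 0.0325), and in miR-23a KO it was at -3.36 (SE 1.01) and not called. In miR-27a KO its value was -3.27 without Scr 1 and -5.21 without Scr 2, and SOCS3 was not called without the low-count filter (-4.53). NFKB1, a subunit of NF-kappaB, was at 44.5 and 50.3 CPM in Scr, 21.2 and 62.9 CPM in miR-23a KO, and 85.0 and 85.5 CPM in miR-27a KO. The interleukin-1 receptor gene IL1R1 was at 30.0 and 28.5 CPM in Scr, 6.60 and 45.8 CPM in miR-23a KO, and 53.9 and 50.6 CPM in miR-27a KO. For both genes the miR-27a KO pair was highest, with log2 fold changes of 0.78 for NFKB1 and 0.77 for IL1R1 (SE 0.09 and 0.12; edgeR with Benjamini-Hochberg adjusted p = 0.0111 and 0.0193). IRAK1, RELA, TNFRSF1A and STAT3, which had the highest counts of the rest, were not called. IL1R1 was not called with the GC and length correction (0.58). CEBPB, a factor that drives acute-phase genes, was at -1.18 and not called by edgeR, but DESeq2 called it, and so did edgeR without Scr 1 or without Scr 2. With either miR-27a KO library left out SOCS3 alone was called, beside 2.96% and 2.29% of all genes, and 6 genes were called without Scr 1 and 7 without Scr 2, beside 16.4% and 26.2%. In the fit of all 6 libraries edgeR called 0 of the 18, with SOCS3 and CEBPB at an unadjusted p under 0.05.

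Of 10 liver transcription factors, NR5A2 alone was called in miR-27a KO, a share near the 10.3% of all genes, and it fell. An unadjusted edgeR p under 0.05 was reached by 7 of the 10, beside 32.2% of all genes. That number was 4 with scaling by total counts and 3 with the GC and length correction. HNF4A, CEBPA, RXRA and FOXA1, which had the highest counts of the list, were not called. NR5A2, an orphan nuclear receptor of liver, was at 4.10 and 8.19 CPM in Scr, 7.87 and 13.9 CPM in miR-23a KO, and 0 and 0.125 CPM in miR-27a KO. Levels in miR-27a KO were at or near 0, below every other library. It had 2 counts over both miR-27a KO libraries and 179 over Scr, a ratio of 97.1 with a counting interval from 26.5 to 808 (edgeR with Benjamini-Hochberg adjusted p = 0.0141). Against miR-27a KO 2 alone, with 2 counts, the ratio was 48.7 (counting interval 13.3 to 405). For miR-27a KO 1, with 0 counts and a floor of 3 for that library, pooled Scr gave a ratio of at least 32.3. These ratios pool both Scr libraries and do not cover the spread between them, at 4.10 and 8.19 CPM. With either miR-27a KO library left out NR5A2 alone was again called, as in the fit of all 6 libraries, and 4 factors were called without Scr 1 or without Scr 2, beside 16.4% and 26.2% of all genes. DESeq2 called NR5A2 and the bile acid receptor gene NR1H4.

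Of 7 clearance receptors, 5 were tested and edgeR called 0 in miR-27a KO, beside 10.3% of all genes. At an unadjusted p under 0.05 there were 3, beside 32.2% of all genes. DESeq2 called STRA6, the receptor for retinol-binding protein, and edgeR did so with scaling by total counts, with the GC and length correction, without Scr 1 or without Scr 2. STRA6 was at 10.3 and 4.58 CPM in Scr, 0 and 0.251 CPM in miR-23a KO, and 26.3 and 24.3 CPM in miR-27a KO, so the groups did not overlap. The asialoglycoprotein receptor genes ASGR1 and ASGR2, with LRP1 and FCGRT, had the highest counts and were not called. The exception was FCGRT with the GC and length correction, either alone or together with the replicate block. In miR-23a KO against Scr, edgeR called 0 genes of each of these lists. There, 1 signalling gene, 0 factors and 1 receptor had an unadjusted p under 0.05 (SOCS3 and STRA6), beside 2.41% of all genes. DESeq2 called STRA6 in that comparison. Without miR-23a KO 1 edgeR called 1, 0 and 2 genes of the 3 lists, beside 3.95% of all genes, and without miR-23a KO 2 it called 8, 4 and 3, beside 18.5%. Between the knockouts edgeR called 0 of these genes, with 0, 2 and 1 at an unadjusted p under 0.05, beside 8.73% of all genes. DESeq2 called NR5A2 and STRA6 between the knockouts, as did edgeR in the fit of all 6 libraries. With miR-23a KO 1 left out the counts were 8, 4 and 3 beside 34.0% of all genes, and with miR-23a KO 2 left out 12, 6 and 3 beside 51.4%. With miR-27a KO 1 left out they were 0, 0 and 1 beside 0.526%, and with miR-27a KO 2 left out 0, 1 and 1 beside 0.499%.

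Markers of the cell line were checked beside the module. All 10 hepatoma markers were detected in each library, and they summed to 16523 and 20673 CPM in Scr, 18436 and 21631 CPM in miR-23a KO, and 14943 and 14808 CPM in miR-27a KO. The most abundant was GPC3 or AFP in Scr, KRT8 or AFP in miR-23a KO, and GPC3 in miR-27a KO. In miR-27a KO, 3 of 10 were called, beside 10.3% of all genes, and all 3 were lower: AFP, APOA2 (-0.70) and the fibrinogen chain gene FGB (-2.05). With either miR-27a KO library left out the 3 became 2, AFP and FGB, and without Scr 2 there were 6, beside 26.2% of all genes. In the fit of all 6 libraries AFP alone was called. In miR-23a KO against Scr, edgeR and DESeq2 each called 0 hepatoma markers, FGA and FGB had an unadjusted p under 0.05, and edgeR called 2 without miR-23a KO 1 and 6 without miR-23a KO 2, where 3.95% and 18.5% of all genes were called. Between the knockouts edgeR called 0, AFP alone had an unadjusted p under 0.05 and was called by DESeq2, and edgeR called 6 without miR-23a KO 1 and 9 without miR-23a KO 2, where 34.0% and 51.4% of all genes were called; AFP was also called in the fit of all 6 libraries.

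Markers of 4 other cell types were also summed. For leukocytes and Kupffer cells, 2 of 5 were in the table: PTPRC, the defining leukocyte marker, had 10 counts over all libraries, and the lysosomal CD68 was at 156 and 156 CPM in Scr, 108 and 82.4 CPM in miR-23a KO, and 111 and 107 CPM in miR-27a KO. For fibroblasts and stellate cells, 2 of 6 were in the table, COL1A1 had 6 counts in all, and PDGFRB was at 16.8 and 30.1 CPM in Scr, 23.7 and 22.8 CPM in miR-23a KO, and 5.87 and 5.33 CPM in miR-27a KO. PDGFRB fell by 2.12 in miR-27a KO and was the single gene of its list tested. Endothelial markers, 4 of 5 in the table and led by PECAM1, summed to at most 7.97 CPM in any library, and STAB2 was at 0 in 4 of 6 libraries. Cholangiocyte markers, 4 of 4 in the table, summed to 438 and 463 CPM in Scr, 265 and 289 CPM in miR-23a KO, and 582 and 589 CPM in miR-27a KO. KRT19 led in Scr and miR-23a KO and EPCAM in miR-27a KO, and KRT7 had 15 counts in all. EPCAM rose by 1.33 in miR-27a KO, from 82.7 and 110 CPM in Scr to 249 and 255 CPM, beside 54.4 and 90.2 CPM in miR-23a KO. In the fit of all 6 libraries neither EPCAM nor PDGFRB was called in miR-27a KO against Scr, each with an unadjusted p under 0.05. Without Scr 2 CD68 was also called in miR-27a KO against Scr, and without Scr 1 the endothelial gene VWF. Of these 4 marker lists, edgeR called 0 genes in either comparison of miR-23a KO. Against Scr, SOX9 had an unadjusted p under 0.05 and DESeq2 called 0, while CD68 and KRT19 were called without miR-23a KO 1 and SOX9 without miR-23a KO 2. Between the knockouts, PDGFRB and 2 cholangiocyte markers had an unadjusted p under 0.05, and DESeq2 called PDGFRB and EPCAM, while edgeR called EPCAM in the fit of all 6 libraries. These calls also came without miR-23a KO 1 and without miR-23a KO 2, with SOX9 in both, KRT19 in the first, and PECAM1 and VWF in the second. AFP and PDGFRB were thus lower and EPCAM higher in both miR-27a KO libraries than in all others, while CD68 was lower than Scr in all 4 KO libraries. Their part in the module's values was not tested.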

How the data were processed

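RNA libraries of 6 HepG2 samples were sequenced as paired reads with a TruSeq kit. The methods name a stranded mRNA kit and the labels an RNA kit, and whether counting used strand is not stated. The deposited values were treated as estimated counts per gene made by the authors, although the columns are named FPKM. No source states this unit; it was inferred because library totals differ and 42.6% to 51.0% of values are exactly whole, zeros included. It remains an inference: for some genes the ratio of these values to FPKM values in the study's supplement is not constant across libraries. The submitters' processing notes name HISAT, StringTie, Cufflinks and GATK without a role, and the counting tool, build and annotation are not given in the sources used here.

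Estimated counts were rounded. edgeR 4.0.16 in R 4.3.3 (filterByExpr, TMM, glmQLFit, glmQLFTest) was fitted to each pair of groups alone, with Benjamini-Hochberg adjustment over all genes tested, and the scripts were tested on simulated data. Genes were called where the fold passed 1.5 with an adjusted p under 0.05. The SE is the log2 fold change divided by the square root of F. Totals ranged from 14405302 to 16515321 counts. CPM used library totals, and TPM used GENCODE 29 lengths, found for 17624 of 20026 genes (88%). Shares carry Wilson 95% intervals for counting error only. Neighbours lie within 500 kb.

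Values in every library are given for each called member and the 8 members highest in Scr, and the rest by role. Alternatives were DESeq2 1.42.0 size factors and Wald test, total counts, no filter, 1 fit of all 6 libraries, a replicate block, a GC and length correction (loess, span 0.3), the block with that correction, and leaving out each library. The DESeq2 Wald test was run without the low-count filter, so its shares of all genes are over more genes than those of the reported fits. DESeq2 adjusted p-values that were missing stayed missing. Signalling, transcription factor, receptor and cell marker lists were counted the same way, and some genes of the factor list are not reported here. Members, lists and thresholds were chosen with earlier results of these data known. Other software was Python 3.11.15, pandas 2.3.3 and SciPy 1.17.1. The edited miRNA genes, APCS and CRP were not analysed here.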

Additional observations from a re-analysis of the deposited data

How the results depend on the processing

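Having 2 libraries a group and the wide miR-23a KO pair limits every count here. In miR-27a KO against Scr, no called member changed direction under the 12 alternatives, and ALB, SAA4 and CP stayed called in 11 of them. The exception was 1 fit of all 6 libraries, with 0 members called, as at an adjusted p of 0.001. The median member log2 fold change was -0.066 with total counts, -0.22 with DESeq2, -0.21 without the filter, -0.038 with the GC and length correction and -0.034 with the block and that correction, and 3 uncalled members changed sign under either correction. Leaving out 1 library gave 3 to 13 calls and medians from -0.26 to -0.15. In miR-23a KO against Scr, DESeq2 called 1 member, and leaving out 1 library gave 0 to 7 calls and medians from -0.79 to 0.28. Between the knockouts, 5 members were called by DESeq2 (2.43% of all genes), 2 with the GC and length correction (2.20%), 3 with the block (2.90%), 7 with both (5.55%), and 0 to 22 with 1 library left out; the median there was 0.024 with the block and -0.015 with the block and correction. The causes were not tested. Without ALB the shares of counts were 3.02% and 3.13% in Scr, followed by 2.67% and 2.28% for miR-23a KO and 3.51% and 3.49% for miR-27a KO. As shares of TPM, all 33 members with ALB included took 3.72% and 4.35% in Scr, followed by 3.04% and 4.08% for miR-23a KO and 3.47% and 3.46% for miR-27a KO. Libraries share only a replicate number across groups: deviations of same-numbered libraries correlated across 13412 genes, which are not independent, at 0.168 for Scr and miR-23a KO, -0.007 for Scr and miR-27a KO and 0.014 for the knockouts. With the replicate block, 11 members and 12.2% of all genes were called in miR-27a KO against Scr, SERPINA6 and TTR being added. In miR-23a KO against Scr with the block, edgeR called 0 members and 0.50% of all genes. There, 2 members and 3.25% of all genes had an unadjusted p under 0.05. With the block and the GC and length correction, 10 members and 11.9% of all genes were called in miR-27a KO against Scr, SERPINA3 and TTR being added and RBP4 lost. Of the other lists, CEBPB, NR1H4 and STRA6 were also called in miR-27a KO against Scr with the block alone, and STRA6 in miR-23a KO against Scr.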
